A study of Mus musculus with 2 samples.

Results

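Oxidative phosphorylation genes were described in splenic CD8 T cells of an aged mouse host that had received young CD8 T cells. Genes were taken by symbol, as every symbol that starts with mt-, Nduf, Uqcr or Atp5, or with Cox followed by a digit from 4 to 8. This gave 101 of 31017 symbols, 13 encoded in the mitochondrial genome and 88 in the nucleus. The symbol rule itself uses no measured value, but it was set with earlier results of these data known. The old recipient cells were CD45.2+ CD3e+CD8a+ cells of wild-type CD45.2 C57BL/6J mice, aged 24 months at transfer and 25 months at harvest. The young donor cells were CD45.1+ CD3e+CD8a+ cells from wild-type CD45.1 C57BL/6J mice aged 3 months, given as total CD8 T cells and recovered from the same kind of aged host 1 month later. Each population gave 1 droplet single-cell library, and whether mice were pooled was not given in the sources used here.

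Oxidative phosphorylation makes most of a resting T cell's ATP. Complexes I, III and IV of the inner mitochondrial membrane pass electrons from NADH to oxygen and pump protons, and complex V, the ATP synthase, uses the proton gradient. Mitochondrial DNA encodes core subunits of all 4 of these complexes, and nuclear genes encode the other subunits and the assembly factors, so each complex is built from both genomes. The mitochondrial heavy strand is copied as a long RNA that is then cut into single messages, whereas each nuclear gene has its own promoter.

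With 1 library per group, library and group cannot be told apart and no difference was tested. Values are unique molecular identifiers (UMIs) added up over the cells of a set and divided by that set's own total, in CPM. Ratios are log2 with 95% intervals in brackets that cover counting error only. A gene was counted in a comparison when it had at least 200 UMIs over both cell sets, and it was called when it was past 1.2-fold.

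The recipient library held 5341 cells and the donor library 7451 cells after filtering, from 6174 and 8588 barcodes with 41504941 and 65006187 UMIs. The libraries shared 105 barcodes. Cells were placed in 4 classes by raw UMIs of marker genes outside the set described here. Cx3cr1 cells had at least 1 UMI of Cx3cr1, Gzmk cells at least 2 of Gzmk and none of Cx3cr1, and Ly6c2 cells at least 2 of Ly6c2 with fewer than 2 of Gzmk and none of Cx3cr1. Naive-type cells had at least 2 UMIs over a short list of naive T cell genes, at most 1 of Ly6c2, at most 2 of Ccl5 and none of Gzmk or Cx3cr1. The recipient had 366 Cx3cr1, 853 Gzmk, 2055 Ly6c2 and 1713 naive-type cells, against 304, 940, 4995 and 912 in the donor. All 5 CD8 T cell markers were detected in each class. Of 5 naive-type markers not used to set the classes, Igfbp4, Tcf7, Satb1 and Dapl1 were lower in Gzmk and Cx3cr1 than in naive-type cells of both libraries, and Klf2 was higher. Igfbp4 was at 18.0 CPM or less in Gzmk and Cx3cr1 cells and at 228 and 85.5 CPM in recipient and donor Ly6c2 cells, against 648 and 577 CPM in naive-type cells. Klf2 was at 1621 and 1591 CPM in recipient and donor Cx3cr1 cells and 864 and 909 CPM in Gzmk cells, against 794 and 790 CPM in naive-type cells. Satb1 was higher in Ly6c2 cells, at 151 and 164 CPM, against 134 and 129 CPM in naive-type cells. Eomes, a Gzmk-class marker, was at 282 and 256 CPM in recipient and donor Gzmk cells, against 13.1 and 12.3 CPM in naive-type cells. It was also at 198 and 223 CPM in recipient and donor Cx3cr1 cells and at 56.1 and 73.8 CPM in Ly6c2 cells. Summed markers of other cell types ranged over the classes of both libraries from 8.51 to 35.1 CPM for 5 B cell genes, nearly all of it Cd79b, and from 13.7 to 285 CPM for 5 NK cell genes, most of it Eomes, which T cells also express. Of the NK cell genes, Fcer1g was at 27.8 CPM in recipient and 2.05 CPM in donor Ly6c2 cells, and its part in the results was not tested. The sums were 0.461 to 3.37 CPM for 3 CD4 T cell genes, 1.51 to 10.9 CPM for 5 myeloid genes, 4.51 to 9.17 CPM for 4 erythroid genes, at most 0.655 CPM for 2 platelet genes and 7.30 to 36.8 CPM for 2 stromal genes, nearly all of it Pecam1.

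Mitochondrial and nuclear genes differed in opposite ways between cell classes when given as a share of each cell's UMIs. In the old recipient the median cell gave the 13 mitochondrial genes 2.33% of its UMIs in Cx3cr1 cells, 2.46% in Gzmk cells and 3.02% in Ly6c2 cells, against 2.89% in naive-type cells. In the young donor the same medians were 2.45% in Cx3cr1 cells, 2.48% in Gzmk cells and 3.14% in Ly6c2 cells, against 3.01% in naive-type cells. In both libraries, over cells of all depths, Ly6c2 and naive-type cells were close together, and Gzmk and Cx3cr1 cells lay below them. The 88 nuclear genes took 2.18% of the UMIs of the median recipient Cx3cr1 cell, 2.13% in Gzmk cells and 1.86% in Ly6c2 cells, against 1.86% in naive-type cells. The donor values were 2.14%, 2.07% and 1.85% in Cx3cr1, Gzmk and Ly6c2 cells, against 1.81% in naive-type cells. Cells within a class overlapped widely: in the recipient the 10th to 90th percentiles of the mitochondrial share were 1.71% to 3.58% in Gzmk cells and 2.26% to 3.72% in naive-type cells.

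The ratio of mitochondrial to nuclear UMIs within a cell does not depend on the total and showed the same order. Its median was 1.09 in recipient Cx3cr1 cells, 1.18 in Gzmk cells and 1.62 in Ly6c2 cells, against 1.54 in naive-type cells. In the donor it was 1.14, 1.2 and 1.69 in Cx3cr1, Gzmk and Ly6c2 cells, against 1.66 in naive-type cells. From summed UMIs, the log2 ratio of mitochondrial to nuclear genes was lower in Gzmk than in naive-type cells by -0.37 [-0.39, -0.36] in the recipient and -0.43 [-0.44, -0.41] in the donor. For Cx3cr1 cells the values were -0.44 [-0.47, -0.42] in the recipient and -0.56 [-0.58, -0.53] in the donor, and the same naive-type cells served as the base for each class. For Ly6c2 cells they were 0.073 [0.063, 0.083] in the recipient and 0.031 [0.020, 0.042] in the donor, and both turned negative without the limit on mitochondrial UMIs (-0.096 and -0.17).

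**Figure D1:**
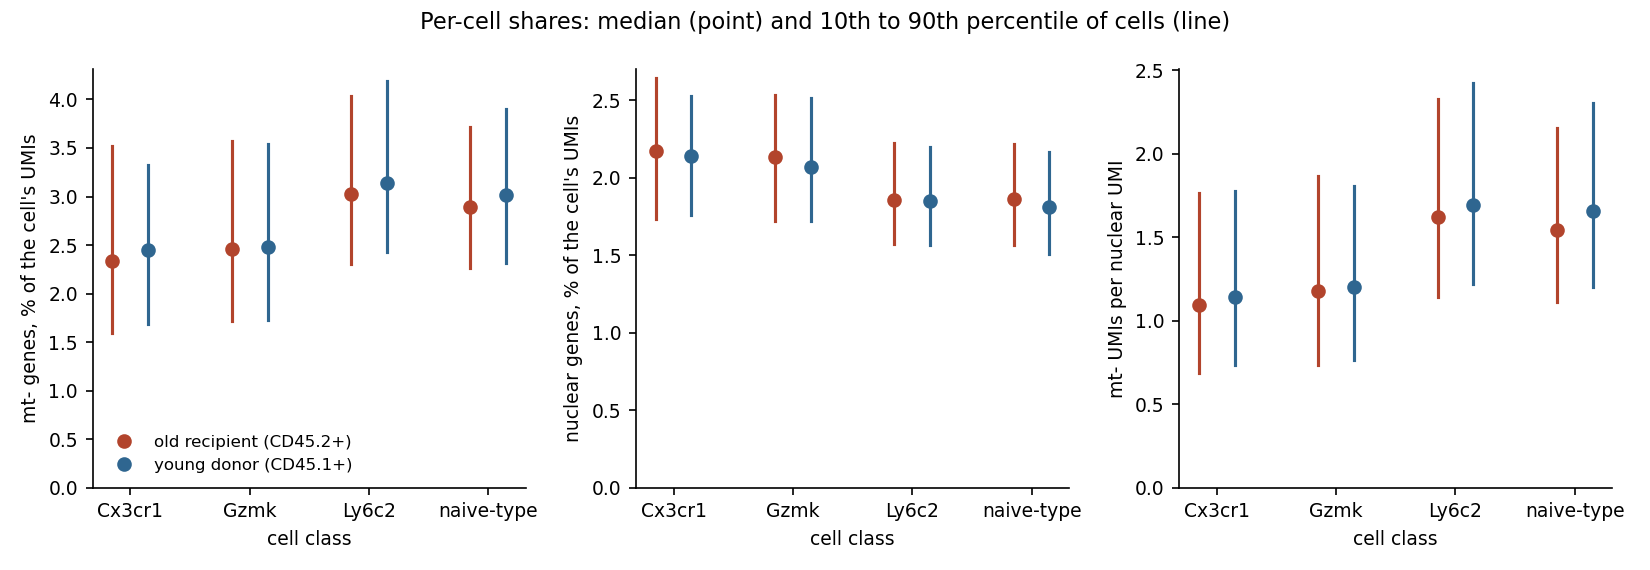
Share of each cell's UMIs from the 13 mitochondrial genes (left), from the 88 nuclear genes (middle) and their ratio (right), by cell class, with the old recipient left of the young donor. Points are medians over cells and lines run from the 10th to the 90th percentile; in both libraries the ratio is lower in Gzmk and Cx3cr1 cells (medians 1.09 to 1.2) than in Ly6c2 and naive-type cells (1.54 to 1.69).

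Other features of the cells moved with these shares. Ribosomal protein genes took 23.3%, 27.3% and 42.4% of UMIs in the median recipient Cx3cr1, Gzmk and Ly6c2 cell, against 43.0% in naive-type cells, and 25.5%, 28.5% and 42.0%, against 42.9%, in the donor. As a share of the UMIs outside ribosomal protein and mitochondrial genes, the nuclear genes were no longer higher in Gzmk cells. Their medians were 3.06% in Gzmk cells against 3.43% in naive-type cells of the recipient and 3.06% against 3.37% in the donor. The mitochondrial UMIs are not part of this base but kept their direction when divided by it. They came to 3.56% of it in Gzmk cells against 5.32% in naive-type cells of the recipient and 3.65% against 5.58% in the donor. Depth differed too, with median UMIs per cell of 4156, 4573 and 8274 in recipient Cx3cr1, Gzmk and Ly6c2 cells, against 7198 in naive-type cells. Among cells with 4000 to 6000 UMIs the median mitochondrial share was 2.44% in 422 Gzmk cells against 3.02% in 374 naive-type cells of the recipient, and 2.45% in 446 Gzmk cells against 3.31% in 135 naive-type cells of the donor. At that depth the Ly6c2 medians were 3.35% in 245 recipient cells and 3.71% in 435 donor cells. They stood further above naive-type cells than over cells of all depths. Cells with over 10% mitochondrial UMIs had been left out, which removed 500 recipient barcodes (8.10%) and 530 donor barcodes (6.17%). With no such limit the recipient had 862 Gzmk and 1921 naive-type cells and the donor 942 and 1026, and the log2 ratio of mitochondrial to nuclear genes in Gzmk over naive-type cells was -0.55 in the recipient and -0.64 in the donor.

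The median of all counted genes was shifted upward by 0.31 on the log2 scale in Gzmk over naive-type cells in both libraries. It was shifted by 0.35 in the recipient and 0.34 in the donor in Cx3cr1 over naive-type cells. With totals that leave out ribosomal protein and mitochondrial genes, the Gzmk median was -0.040 in the recipient and -0.011 in the donor. The part of ribosomal protein genes alone was not tested. Single genes in class comparisons are given relative to the median of all genes on the CPM scale. On this scale all 13 mitochondrial genes were past 1.2-fold lower in Gzmk cells in both libraries, with a median of -0.51 in the recipient and -0.57 in the donor. Over all genes 26.5% were called lower in the recipient and 25.6% in the donor. In Cx3cr1 cells all 13 were again past 1.2-fold lower in both libraries, with medians of -0.61 in the recipient and -0.69 in the donor, where 28.9% and 28.2% of all genes were called lower. The count of 13 rests on the correction for the median. On the CPM scale all 13 were below 0 in both classes and both libraries, but those past 1.2-fold lower were 3 of 13 in recipient and 7 in donor Gzmk cells, with medians of -0.20 and -0.27, where 12.5% and 11.2% of all genes were. They were 6 in recipient and 9 in donor Cx3cr1 cells, with medians of -0.26 and -0.35, where 12.8% and 13% of all genes were. In Ly6c2 cells none of the 13 was past 1.2-fold in either direction in either library, where 21.4% of all genes in the recipient (13.3% higher, 8.11% lower) and 30.3% in the donor (17.2% higher, 13.1% lower) were called.

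Among the mitochondrial genes summed by complex, those of complex I differed most between Gzmk and naive-type cells. This did not hold for each gene, since mt-Nd6 of complex I differed little between these classes on the CPM scale. Relative to the median of all genes mt-Nd6 was past 1.2-fold lower, and the sums here are on that scale. The 7 complex I members summed were at -0.63 [-0.65, -0.61] in recipient Gzmk over naive-type cells and at -0.66 [-0.68, -0.64] in the donor. The 3 complex IV genes were at -0.40 [-0.41, -0.38] and -0.45 [-0.47, -0.44], and the 2 complex V genes at -0.52 [-0.54, -0.49] and -0.55 [-0.57, -0.53]. The complex I sum thus lay below the complex IV sum in both libraries, with intervals that did not overlap. The plot of mitochondrial gene levels by class shows the steps for single genes.

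The subunit genes mt-Nd2 (ENSMUSG00000064345, chromosome M, 3914 to 4951) and mt-Nd4l (ENSMUSG00000065947, chromosome M, 9877 to 10173) both encode membrane-arm subunits of complex I. mt-Nd2 had 1094 CPM in recipient Gzmk cells against 1436 CPM in naive-type cells, and 1146 CPM against 1595 CPM in the donor. Relative to the median of all genes this was -0.70 [-0.75, -0.65] in the recipient and -0.79 [-0.83, -0.74] in the donor. mt-Nd4l had 1819 CPM in recipient Gzmk cells against 2408 CPM in naive-type cells, and 1912 CPM against 2559 CPM in the donor, or -0.71 [-0.75, -0.68] and -0.73 [-0.77, -0.69]. In complex IV, mt-Co1, which encodes the catalytic subunit, had 4832 CPM in recipient Gzmk cells against 5182 CPM in naive-type cells, and 4792 CPM against 5327 CPM in the donor. mt-Cytb, the one complex III gene of mitochondrial DNA, had 2205 CPM against 2536 CPM in the recipient and 2135 CPM against 2588 CPM in the donor, or -0.51 [-0.54, -0.48] and -0.59 [-0.62, -0.55].

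The 7 mitochondrial genes mt-Co1, mt-Co2, mt-Co3, mt-Atp6, mt-Nd3, mt-Nd4l and mt-Nd4 have at least 20% of their 50-base stretches in an annotated pseudogene copy elsewhere in the genome, and mt-Atp8 overlaps mt-Atp6, mt-Nd4l overlaps mt-Nd4, and mt-Nd6 lies opposite the end of mt-Nd5. How the counting treated such reads and the strand was not given in the sources used here, so the values of these genes are uncertain. mt-Nd6, the only member on the light strand, had 51.2 CPM in recipient Gzmk cells against 51.2 CPM in naive-type cells, and 53.9 CPM against 56.8 CPM in the donor. Among donor cells with 4000 to 6000 UMIs its value relative to the median turned to 0.034 in Gzmk and 0.058 in Cx3cr1 cells.

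**Figure D2:**
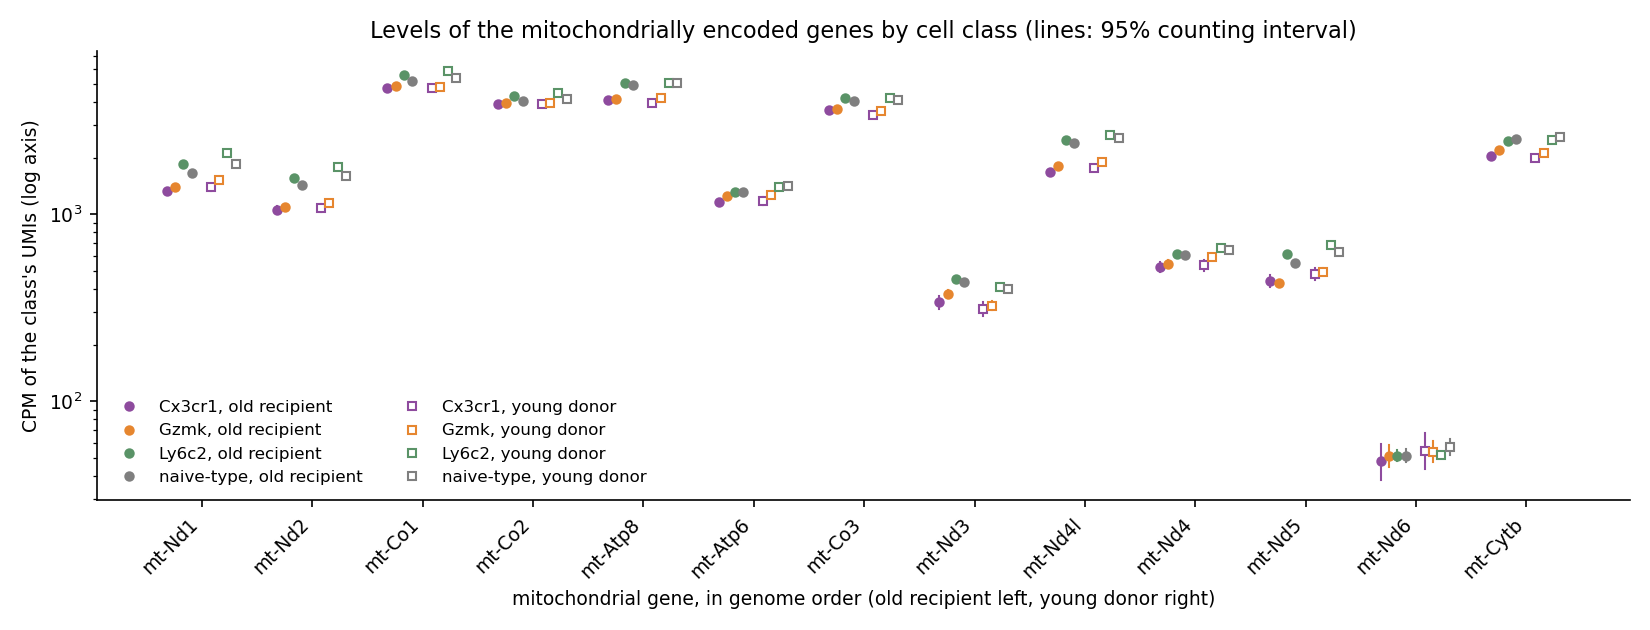
CPM of the 13 mitochondrial genes (log axis) in genome order, with the old recipient (filled) left of the young donor (open) for each gene and the 4 classes in colour; lines are 95% counting intervals. In both libraries Gzmk and Cx3cr1 cells lie below naive-type and Ly6c2 cells for all genes but mt-Nd6, which is between 47.7 and 56.8 CPM throughout.

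The nuclear genes as a group lay slightly below the median of all genes in the same cells. In recipient Gzmk over naive-type cells, 3 of 78 counted members were past 1.2-fold higher, where 24.7% of all genes were, and 17 lower, where 26.5% were (51.3% either way), with a median of -0.11. In the donor 1 of 74 was higher, where 24.4% of all genes were, and 16 lower, where 25.6% were (50% either way), with a median of -0.10. In Cx3cr1 cells 6 of 77 were higher and 23 lower in the recipient, and 5 of 74 higher and 14 lower in the donor, where 26.7% and 25.4% of all genes were called higher and 28.9% and 28.2% lower (55.6% and 53.6% either way). The members past 1.2-fold lower in Gzmk cells of both libraries were Ndufa10, Ndufaf4, Uqcrh, Ndufb2, Ndufa9, Atp5b, Atp5g1, Uqcrfs1, Ndufa6, Atp5g2, Ndufb4, Cox7a2l and Ndufv1, which makes 13 of the 74 counted in both, where 19.7% of all genes were. Ndufb7 was the 1 member higher in both, where 19.2% of all genes were. Other annotated genes hold 37.0% of the 50-base stretches of Ndufb4, so its value is uncertain. Without the correction for the median, 31 nuclear members were past 1.2-fold higher and 2 lower in recipient Gzmk cells, where 54.5% and 12.5% of all genes were, so the direction of the nuclear genes rests on the scale used (67% of all genes either way). In the donor 27 were higher and 1 lower, where 55.2% and 11.2% of all genes were (66.4% either way). In Cx3cr1 cells on that scale 35 were higher and 2 lower in the recipient, where 57.7% and 12.8% of all genes were (70.5% either way), and 41 higher and 3 lower in the donor, where 57.8% and 13% were (70.8% either way). In Ly6c2 cells none was higher and 1 lower in the recipient, where 12.3% and 9.05% of all genes were, and 2 were higher and 1 lower in the donor, where 19% and 11.2% were (30.2% either way). On the CPM scale the nuclear sum in Gzmk cells was 0.19 [0.18, 0.20] higher in the recipient and 0.20 [0.19, 0.21] in the donor.

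By complex, the 8 nuclear genes of complex III summed to -0.23 [-0.27, -0.20] relative to the median of all genes in recipient Gzmk over naive-type cells and to -0.22 [-0.26, -0.18] in the donor. Complex I summed to -0.075 [-0.095, -0.056] and -0.080 [-0.10, -0.058], complex IV to -0.083 [-0.10, -0.061] and -0.10 [-0.12, -0.076], and complex V to -0.14 [-0.16, -0.12] and -0.11 [-0.13, -0.087]. Relative to the median of all genes, every nuclear complex sum was nearer to 0 than the mitochondrial sum of the same complex. On the CPM scale this did not hold for complex IV in either library. Complexes were set by gene symbol throughout, so Ndufa4 and Ndufa4l2 counted in complex I and not in complex IV.

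In complex I, Ndufb7 (ENSMUSG00000033938, chromosome 8, 83566671 to 83571626), an accessory subunit of the membrane arm, had 232 CPM in recipient Gzmk cells against 155 CPM in naive-type cells, and 243 CPM against 155 CPM in the donor. This was 0.28 [0.17, 0.39] and 0.34 [0.22, 0.46] relative to the median. In Cx3cr1 cells it was at 267 CPM in the recipient and 263 CPM in the donor. Ndufa13 (chromosome 8, 69894180 to 69902558), another accessory subunit, had 511 CPM in recipient Cx3cr1 cells against 331 CPM in naive-type cells, and 495 CPM against 315 CPM in the donor, or 0.28 [0.18, 0.38] and 0.31 [0.19, 0.43]. These 2 genes and Atp5h were the nuclear members past 1.2-fold higher in Cx3cr1 cells of both libraries, 3 of 74, where 19% of all genes were.

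Other complex I genes went the opposite way. Ndufa10 (chromosome 1, 92439010 to 92473860), an accessory subunit of the matrix-facing side, had 96.1 CPM in recipient Gzmk cells against 118 CPM in naive-type cells, and 103 CPM against 113 CPM in the donor. Relative to the median this was -0.61 [-0.77, -0.45] in the recipient and -0.45 [-0.61, -0.28] in the donor. Ndufa6 had 375 CPM in recipient Gzmk cells against 414 CPM, and 376 CPM against 428 CPM in the donor, or -0.45 [-0.53, -0.37] and -0.50 [-0.58, -0.41]. Ndufaf4 (chromosome 4, 24898083 to 24905001), an assembly factor of complex I, had 34.8 CPM in recipient Cx3cr1 cells against 42.9 CPM in naive-type cells, and 32.2 CPM against 47.6 CPM in the donor. Its intervals were wide, at -0.65 [-1.05, -0.27] and -0.91 [-1.37, -0.47]. Ndufaf5, an assembly factor with an enzymatic role, had the highest nuclear value in recipient Cx3cr1 cells, 26.9 CPM against 13.3 CPM, or 0.67 [0.17, 1.14], and was at 23.6 CPM against 11.9 CPM in the donor, where it had too few UMIs to be counted.

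In complex III, Uqcrh, the hinge subunit next to cytochrome c1, had 719 CPM in recipient Gzmk cells against 755 CPM in naive-type cells, and 716 CPM against 742 CPM in the donor. Uqcrc1, a core subunit, had 171 CPM in recipient Cx3cr1 cells against 123 CPM in naive-type cells, and 169 CPM against 106 CPM in the donor. Relative to the median it was at 0.33 [0.12, 0.54] in donor Cx3cr1 cells and past 1.2-fold there, while in the recipient it was at 0.12.

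In complex IV, Cox7a2l (ENSMUSG00000024248, chromosome 17, 83501918 to 83517330) was the lowest nuclear member in Gzmk cells of both libraries. It encodes a factor that links complexes III and IV into supercomplexes, and C57BL/6 mice are known to carry a shortened form of it. It had 365 CPM in recipient Cx3cr1 cells, 355 CPM in Gzmk cells and 427 CPM in Ly6c2 cells, against 518 CPM in naive-type cells. In the donor the values were 362, 386 and 411 CPM in Cx3cr1, Gzmk and Ly6c2 cells, against 527 CPM in naive-type cells. Naive-type cells were the highest class in both libraries and Ly6c2 cells lay between. Relative to the median, Gzmk over naive-type cells was at -0.85 [-0.93, -0.77] in the recipient and -0.76 [-0.84, -0.68] in the donor, and Ly6c2 over naive-type cells at -0.26 [-0.31, -0.21] and -0.39 [-0.44, -0.34]. A processed pseudogene, Gm6969, holds 17.7% of its 50-base stretches. Cox6b1, a subunit on the outer side of complex IV, went the other way, with 512 CPM in recipient Cx3cr1 cells against 341 CPM in naive-type cells and 483 CPM against 326 CPM in the donor, or 0.24 [0.14, 0.34] and 0.23 [0.10, 0.35].

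**Figure D3:**
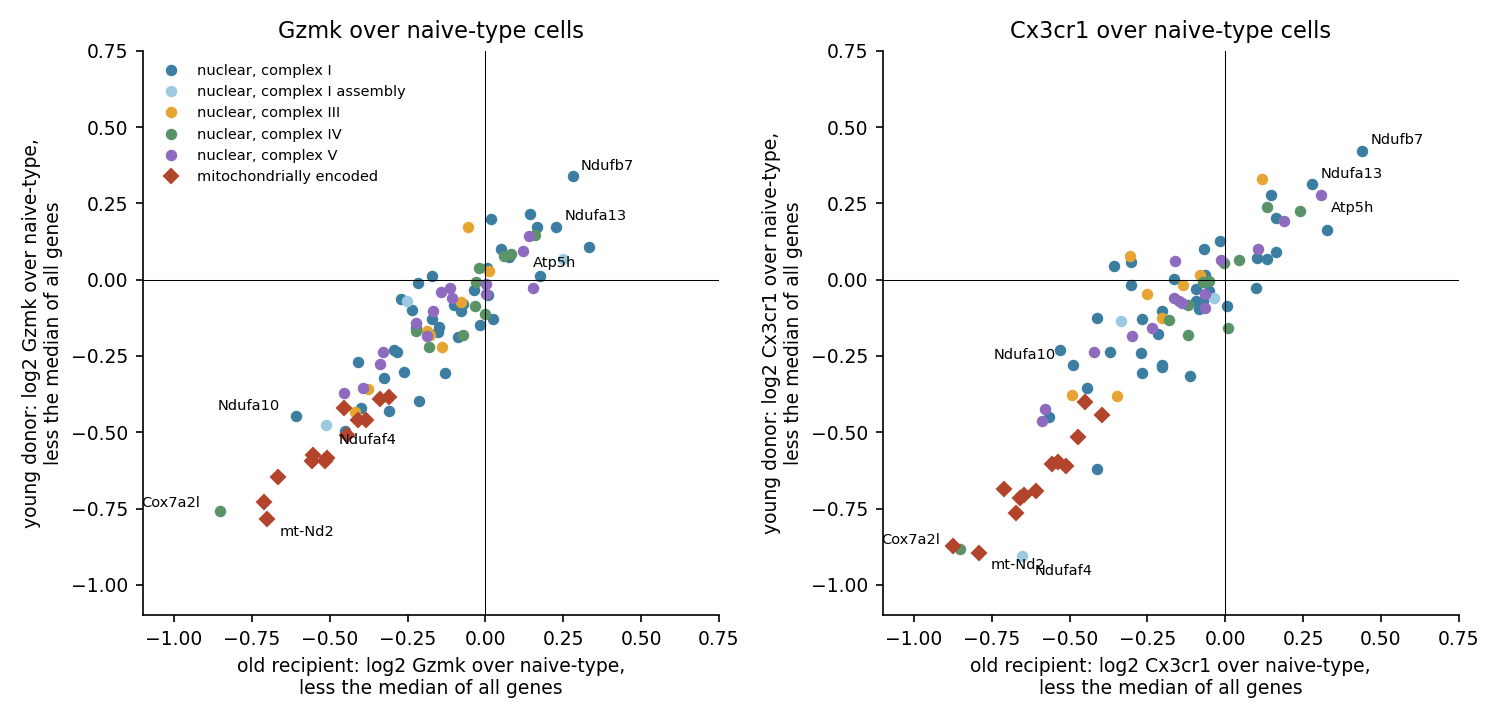
Log2 of Gzmk (left) and Cx3cr1 (right) over naive-type cells for each gene counted in both libraries, less the median of all genes, in the old recipient (horizontal axis) and the young donor (vertical axis). Colours mark the complex of nuclear genes and red diamonds the mitochondrial genes, which lie in the lower left together with some of the nuclear genes. Cox7a2l is the lowest nuclear gene in Gzmk cells (-0.85 and -0.76).

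Several subunits have paralogues, and their share of the family's UMIs is free of the scaling. Shares are compared across classes and not between genes, since they are not corrected for length. Cox7a2l made up 53.6% [50.7, 56.4] of the UMIs of Cox7a1, Cox7a2 and Cox7a2l in recipient Cx3cr1 cells, 53.1% [51.3, 54.9] in Gzmk cells and 62.0% [61.1, 62.9] in Ly6c2 cells, against 66.9% [66.0, 67.8] in naive-type cells. In the donor it made up 52.7% [49.6, 55.8], 54.2% [52.5, 55.9] and 61.3% [60.7, 61.9], against 67.3% [66.1, 68.6]. Brackets here are exact binomial intervals. Gzmk and Cx3cr1 cells lay below naive-type cells in both libraries by more than counting error.

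Atp5g1, Atp5g2 and Atp5g3 encode the same mature subunit c, which forms the rotor ring of complex V. Atp5g3 made up 42.8% of their UMIs in recipient Cx3cr1 cells, 42.6% in Gzmk cells and 33.6% in Ly6c2 cells, against 35.4% in naive-type cells. In the donor it made up 40.8%, 40.4% and 32.8% in Cx3cr1, Gzmk and Ly6c2 cells, against 34.7%. Its share was higher in Gzmk and Cx3cr1 cells of both libraries, and Atp5g2 gave way, at 43.0% in recipient Gzmk cells against 48.9% in naive-type cells and 45.9% against 50.5% in the donor. Paralogues known from muscle, testis or hypoxic cells were near or at 0. Cox6a2, Cox6b2 and Cox7a1 reached at most 4.59 CPM in any class. Cox4i2, Cox7b2, Cox8b, Cox8c and Ndufa4l2 had no UMI, with 0 of 4848 recipient cells and 0 of 6989 donor cells after thinning to 3500 UMIs per cell, which allows shares of cells with a UMI of up to 0.0619% and 0.0429%.

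**Figure D4:**
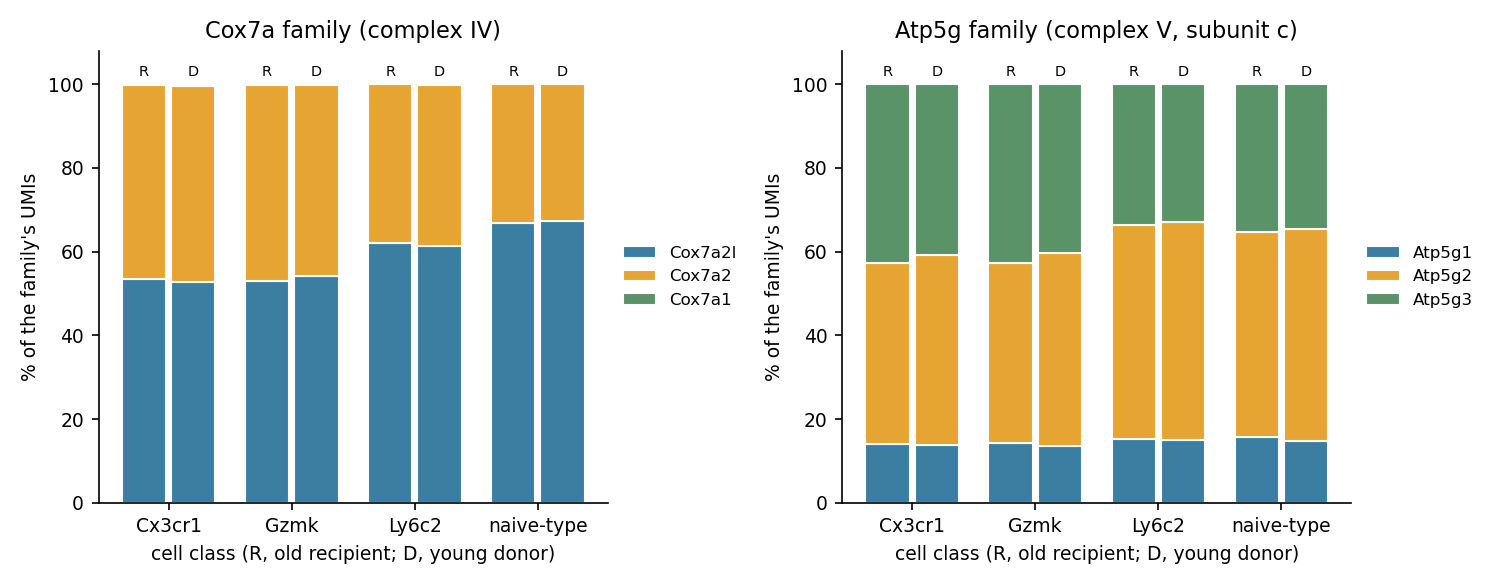
Share of the UMIs of each paralogue within the Cox7a family (left) and the Atp5g family (right), by cell class, with the old recipient (R) left of the young donor (D). Cox7a2l takes 53.1% to 54.2% in Gzmk cells against 66.9% to 67.3% in naive-type cells, and Atp5g3 takes 40.4% to 42.6% against 34.7% to 35.4%; Cox7a1 is too small to see.

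In complex V, Atp5h, a subunit of the peripheral stalk, had 817 CPM in recipient Cx3cr1 cells against 519 CPM in naive-type cells, and 810 CPM against 529 CPM in the donor. Relative to the median it was at 0.31 [0.22, 0.39] and 0.28 [0.18, 0.37]. Other annotated genes, processed pseudogenes among them, hold 23.8% of its 50-base stretches, so its value is uncertain. Atp5g2 had 559 CPM in recipient Cx3cr1 cells against 661 CPM in naive-type cells, and 598 CPM against 651 CPM in the donor, or -0.59 [-0.69, -0.49] in the recipient and -0.46 in the donor.

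Promoters were available for 71 of the 88 nuclear genes from RefSeq on GRCm38.p6, as 250 bases before to 50 after the listed start. 3 motifs of factors known to drive respiratory genes were searched on both strands, and their matches could overlap. The NRF1 motif, GCGC followed by any base and TGCGC, was in 23.9% of the members and in 5.19% of all 27025 genes with a promoter. The ETS motif GCCGGAAGT, of the kind bound by GABP, was in 4.23% and 1.41%, and the YY1 motif AANATGGCG in 15.5% and 2.76%. By complex, the NRF1 motif was in 6 of 13 complex V genes, 7 of 33 complex I genes and 1 of 13 complex IV genes. The 4 stretches below, 250 bases before the listed start, show that genes with this motif stood on both sides of the median in Cx3cr1 cells, Atp5k (0.19 in each library) and Atp5h above it and Ndufaf4 and Atp5g2 below. Capitals mark motif matches, NRF1 in each (for Atp5h on the opposite strand) and, nearer to the start of Atp5h, ETS on the opposite strand. The regions are chr5:108434400-108434649, chr11:115419920-115420169 and chr15:102671048-102671297 on the minus strand for Atp5k, Atp5h and Atp5g2, and chr4:24897833-24898082 on the plus strand for Ndufaf4.
Atp5k: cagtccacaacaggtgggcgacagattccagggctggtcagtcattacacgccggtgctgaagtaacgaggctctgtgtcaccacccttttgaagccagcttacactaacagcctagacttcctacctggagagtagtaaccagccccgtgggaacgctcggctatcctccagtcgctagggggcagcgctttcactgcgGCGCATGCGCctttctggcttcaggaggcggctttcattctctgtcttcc
Atp5h: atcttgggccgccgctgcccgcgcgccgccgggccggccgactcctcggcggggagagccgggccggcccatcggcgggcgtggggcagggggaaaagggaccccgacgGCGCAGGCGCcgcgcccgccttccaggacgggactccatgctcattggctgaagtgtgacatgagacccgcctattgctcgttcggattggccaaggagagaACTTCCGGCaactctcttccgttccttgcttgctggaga
Ndufaf4: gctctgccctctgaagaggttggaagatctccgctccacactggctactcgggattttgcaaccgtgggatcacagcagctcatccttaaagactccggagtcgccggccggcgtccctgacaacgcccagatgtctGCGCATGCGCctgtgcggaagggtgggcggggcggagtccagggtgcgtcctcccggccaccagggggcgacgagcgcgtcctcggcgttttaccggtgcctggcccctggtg
Atp5g2: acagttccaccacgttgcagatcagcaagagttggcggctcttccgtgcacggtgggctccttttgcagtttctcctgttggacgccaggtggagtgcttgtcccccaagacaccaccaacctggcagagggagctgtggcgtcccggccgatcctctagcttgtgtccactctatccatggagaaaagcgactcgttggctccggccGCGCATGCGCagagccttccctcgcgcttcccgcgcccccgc
A match describes these letters in this window and not a bound site.

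Over all cells the mitochondrial to nuclear ratio differed less between old recipient and young donor than between Gzmk or Cx3cr1 and naive-type cells. With the limit on mitochondrial UMIs it differed more than between Ly6c2 and naive-type cells. Without that limit this order was reversed, and Ly6c2 and naive-type cells differed more in both libraries. The mitochondrial genes over all cells summed to 29211 CPM in the recipient and 30888 CPM in the donor, a log2 ratio of -0.081 [-0.084, -0.077]. The nuclear genes summed to 19419 CPM in the recipient and 19041 CPM in the donor, a ratio of 0.028 [0.024, 0.033], which turned to -0.018 under the TMM scaling of edgeR. None of the 13 mitochondrial and none of the 80 counted nuclear genes was past 1.2-fold, where 14.1% of all genes were (8.35% higher and 5.72% lower). The mitochondrial to nuclear ratio was at -0.11 [-0.11, -0.10] over all cells, -0.10 [-0.12, -0.092] in naive-type cells, -0.062 [-0.070, -0.055] in Ly6c2 cells and -0.050 [-0.067, -0.032] in Gzmk cells. In Cx3cr1 cells it was 0.0070 [-0.022, 0.036], an interval that held 0 and lay above the intervals of the other classes. The classes made up different shares of each library, 38.5% of recipient and 67.0% of donor cells being Ly6c2 cells, so values over all cells also carry those shares.

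Within classes few nuclear genes were past 1.2-fold. In Cx3cr1 cells 1 of 70 was higher and 2 lower, where 9.62% of all genes were higher and 3.79% lower (13.4% in all). In Gzmk cells 2 of 74 were higher and none lower, where 8.67% of all genes were higher and 4.47% lower (13.1% in all). In Ly6c2 cells 1 of 80 was lower and none higher, where 6.16% of all genes were lower and 5.31% higher (11.5% in all). In naive-type cells 1 of 78 was higher and none lower, where 7.03% of all genes were higher and 4.57% lower (11.6% in all). No mitochondrial gene was past 1.2-fold in any class.

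Atp5k (ENSMUSG00000050856, chromosome 5, 108433244 to 108434448), which encodes subunit e of the ATP synthase, had the highest ratio of the counted members in all 4 classes. It had 231 CPM in recipient Cx3cr1 cells against 188 CPM in the donor, and 219 CPM against 158 CPM in Gzmk cells. In Ly6c2 cells it had 170 CPM in the recipient against 146 CPM in the donor, and in naive-type cells 159 CPM against 130 CPM. The log2 ratios were 0.30 [0.075, 0.52], 0.47 [0.33, 0.61], 0.22 [0.15, 0.28] and 0.29 [0.18, 0.41] in that order, and each interval lay above 0. Ndufa3, an accessory subunit of complex I, also had intervals above 0 in every class, with ratios of 0.26, 0.17, 0.13 and 0.22 in Cx3cr1, Gzmk, Ly6c2 and naive-type cells. These were 2 of the 70 nuclear genes counted in all classes, or 2.86%, against 1.75% of all genes.

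Among the mitochondrial genes, mt-Nd3 was the one with a ratio above 0 over all cells, at 429 CPM in the recipient and 397 CPM in the donor, or 0.11 [0.083, 0.14]. It stood at 0.12 [-0.059, 0.29], 0.21 [0.11, 0.31], 0.14 [0.098, 0.18] and 0.13 [0.064, 0.20] in Cx3cr1, Gzmk, Ly6c2 and naive-type cells. The other 6 complex I genes were below 0 over all cells, with mt-Nd1 at 1710 CPM in the recipient and 2030 CPM in the donor over all cells, a ratio of -0.25 [-0.26, -0.23]. mt-Nd5 was at -0.13 [-0.27, 0.021], -0.21 [-0.30, -0.12], -0.16 [-0.19, -0.13] and -0.19 [-0.25, -0.14] in Cx3cr1, Gzmk, Ly6c2 and naive-type cells. mt-Nd4l was the one mitochondrial gene of 12 with intervals below 0 in every class, from -0.088 to -0.072, against 1.84% of all genes.

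**Figure D5:**
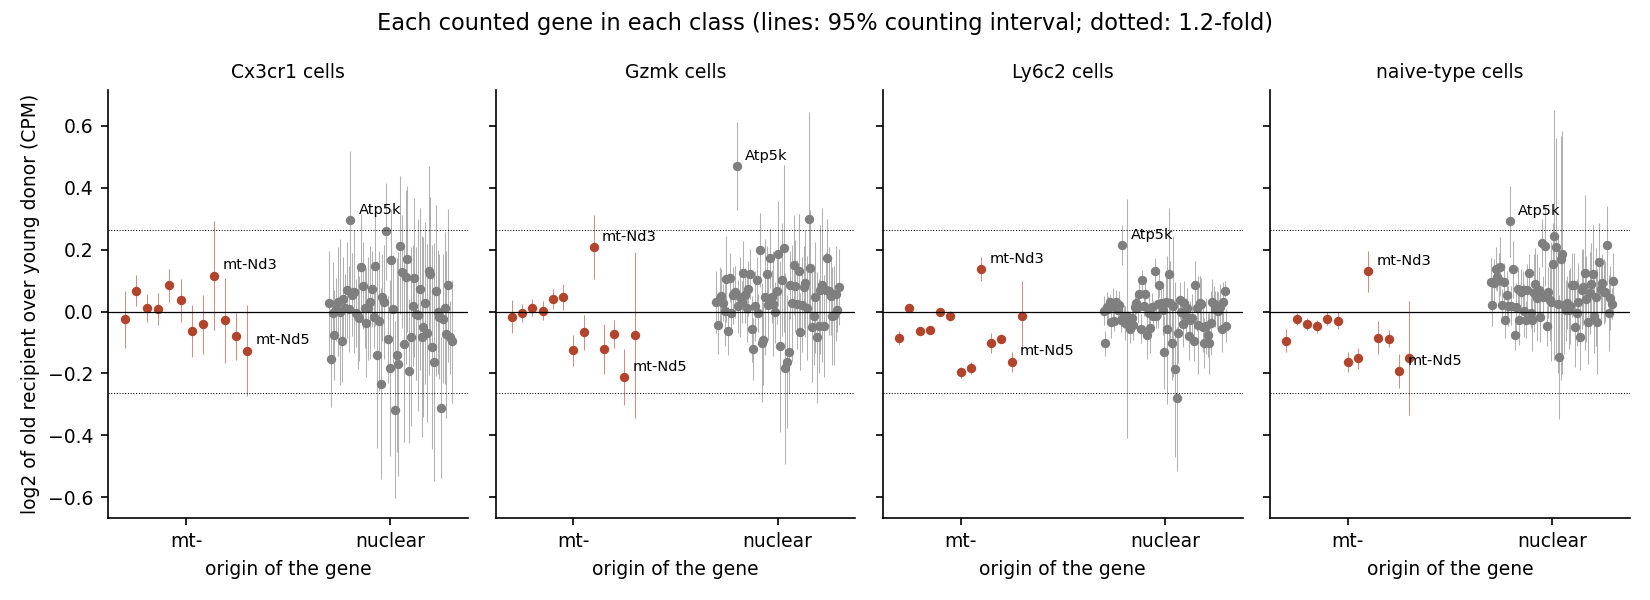
Log2 of old recipient over young donor for each counted mitochondrial gene (red) and nuclear gene (grey) in each class, genes in alphabetical order from left to right; lines are 95% counting intervals and dotted lines mark 1.2-fold. Most genes lie within the dotted lines, with Atp5k highest in each class (0.22 to 0.47).

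Genes of the same process outside the symbol rule were read from 9 lists. Between recipient and donor over all cells, 1 of 78 mitochondrial ribosome genes was past 1.2-fold higher, and 1 each of 16 complex IV assembly genes, 6 further complex I assembly genes and 7 mitochondrial transcription and RNA genes was lower, where 8.35% of all genes were higher and 5.72% lower. None of 4 complex II genes, 8 cytochrome c and complex III genes, 11 ATP synthase and carrier genes, 7 counted regulators and 12 TCA cycle genes was past 1.2-fold. In Gzmk over naive-type cells relative to the median of all genes, 5 mitochondrial ribosome genes were higher and 34 lower of 75 in the recipient, and 4 higher and 27 lower of 72 in the donor, with medians of -0.15 and -0.16. Of all genes 24.7% were higher and 26.5% lower in the recipient, and 24.4% higher and 25.6% lower in the donor. Ucp2, an inner membrane carrier, was among the genes on the other side, at 1009 CPM in recipient Gzmk cells against 484 CPM in naive-type cells and 913 CPM against 425 CPM in the donor, or 0.75 and 0.79. Cox17, which delivers copper to complex IV, was at 326 CPM against 174 CPM and 304 CPM against 167 CPM, or 0.60 and 0.55. Atpif1, an inhibitor of the ATP synthase, was at 0.53 and 0.56, and Sdhb, the iron-sulfur subunit of complex II, at 0.26 and 0.33. Tfam, which packages and helps transcribe mitochondrial DNA, was at 54.9 CPM in recipient Gzmk cells against 40.3 CPM in naive-type cells and 53.0 CPM against 40.1 CPM in the donor, or 0.14 and 0.097 relative to the median. The remaining lists had medians relative to the median of all genes, in recipient and donor Gzmk cells, of -0.26 and -0.25 for cytochrome c and complex III genes, -0.13 and -0.16 for complex IV assembly, -0.30 and 0.049 for complex I assembly, -0.11 and -0.24 for ATP synthase and carriers, -0.16 and -0.11 for transcription and RNA, -0.30 and -0.064 for regulators, -0.088 and -0.040 for the TCA cycle and -0.0040 and -0.13 for complex II.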

How the data were processed

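Counts were deposited as sparse matrices of UMIs per gene and barcode, 1 per library, made with Cell Ranger on mm10 per the submitters' processing notes and, per the file headers, with count software version 3.0.2. How reads shared by genes and strand were treated is not given in the sources used here. Cells with at least 500 genes and at most 10% mitochondrial UMIs were kept, and doublets were scored and removed. UMIs were summed over cells of a class and divided by the total. Intervals are exact for Poisson sums, or for binomial shares, at 95%, and for ratios of ratios a normal approximation. They cover counting error only. The interval code was tested on simulated data. Genes with at least 200 UMIs over both sets were counted, and past 1.2-fold was called. Each group has 1 library, so nothing was tested and no p-value is given. The members, classes and gene lists were chosen with earlier results of these data known. Genes named were the mitochondrial members, the 6 highest and 6 lowest nuclear members by ratio in each comparison, the nuclear member of each complex with the most UMIs, and listed paralogues. Genes of the other lists, and any member outside that rule, were chosen after their values were seen. Alternatives changed cell limits, doublets, scaling (TMM), class rules, the UMI minimum and the fold. Python 3.11.15 with numpy 2.4.6 and scipy 1.17.1, and edgeR 4.0.16 in R 4.3.3, were used. Some marker genes are not reported here.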

Additional observations from a re-analysis of the deposited data

Results flagged for a closer look

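mt-Atp8, which encodes a small subunit of complex V, stood on opposite sides of the median of all genes in Ly6c2 over naive-type cells of the libraries, at 0.053 in the old recipient and -0.024 in the young donor on the log2 scale. The difference was not tested, and the gene overlaps mt-Atp6.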

How the results depend on the processing

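No paired analysis was possible because each group is 1 library and no test was made, so no replicate could be left out either. The mitochondrial to nuclear ratio in Gzmk over naive-type cells ran from -0.55 to -0.32 in the recipient and from -0.64 to -0.37 in the donor over the alternatives, and in Cx3cr1 over naive-type cells from -0.60 to -0.40 and from -0.74 to -0.46.
Without the limit on mitochondrial UMIs, Ly6c2 over naive-type cells reversed to -0.082 in the recipient and -0.12 in the donor for the mitochondrial sum and to -0.096 and -0.17 for the ratio to nuclear genes. The recipient over donor sums over all cells became -0.031 for mitochondrial and 0.020 for nuclear genes there. The mitochondrial sum became -0.076 with at most 5% mitochondrial UMIs, -0.076 with doublets kept, -0.13 under TMM, -0.11 with totals that leave out ribosomal protein and mitochondrial genes and -0.10 in cells of 4000 to 6000 UMIs, a setting chosen after seeing the data. The nuclear sum reversed to -0.018 under TMM and -0.00024 with those totals, and was 0.018 at 4000 to 6000 UMIs. Nuclear sums over naive-type cells reversed to -0.14 and -0.11 (Gzmk, recipient and donor) and -0.20 and -0.12 (Cx3cr1) under TMM, and to -0.15, -0.12, -0.19 and -0.12 with those totals.
Counts of nuclear members past 1.2-fold also moved. These counts take higher and lower members together on the CPM scale, without the correction for the median. The share of all genes under each alternative is not given here, so the counts describe the settings and are no result about the members. Between recipient and donor over all cells the count was 1 with at most 5% mitochondrial UMIs, 2 with a minimum of 50 UMIs or no minimum, and 1 at 4000 to 6000 UMIs. In naive-type cells it was 2 without the mitochondrial limit, with classes set on thinned cells and with a minimum of 50, 4 with no minimum, 0 at 1.5-fold and 6 at 4000 to 6000 UMIs. In Ly6c2 cells it was 0 with doublets kept, with overlapping classes and at 1.5-fold, 2 with a minimum of 50 and 3 with no minimum. In Gzmk cells it was 1 with totals leaving out ribosomal protein and mitochondrial genes, 5 with a minimum of 50, 8 with no minimum and 0 at 1.5-fold. In Cx3cr1 cells it was 5 with thinned classes, 8 with no minimum, 0 at 1.5-fold and 10 at 4000 to 6000 UMIs. In Ly6c2 over naive-type cells of the recipient it was 0 without the mitochondrial limit and at 1.5-fold, 2 with a minimum of 50, 4 with no minimum and 11 at 4000 to 6000 UMIs. In the donor it was 1 without that limit, 0 at 1.5-fold and 11 at 4000 to 6000 UMIs. In Gzmk over naive-type cells it fell to 21 in the recipient and 17 in the donor under TMM. It fell to 17 in the donor with the reduced totals, and to 3 and 1 at 1.5-fold. In Cx3cr1 over naive-type cells it fell to 7 and 5 at 1.5-fold in recipient and donor. In the donor it also fell to 21 under TMM, 21 with the reduced totals and 23 at 4000 to 6000 UMIs.
At 4000 to 6000 UMIs, Ndufaf7 reversed to 0.76 in recipient over donor Ly6c2 cells. Relative to the median, Ndufa12 reversed to 0.12 and Ndufa8 to 0.0068 in recipient Cx3cr1 cells, Ndufs1 to 0.071 and mt-Nd6 to 0.034 in donor Gzmk cells, and mt-Nd6 to 0.058 in donor Cx3cr1 cells. The cause was not tested. Depth limits genes of few UMIs, above all in Cx3cr1 cells.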
